A study of Sus scrofa with 12 samples.

Results

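The genes described here encode the carriers that move sugars, lactate, pyruvate and related small molecules across cell membranes in the sow endometrium. They were taken from the deposited gene table by name, as every gene whose symbol starts with SLC2A, SLC5A or SLC16A followed by a digit, which gave 40 of 20674 genes. Of these, 14 belong to SLC2A, 12 to SLC5A and 14 to SLC16A. The name rule also takes in SLC2A4RG, a regulator of SLC2A4 transcription that transports nothing, so 39 of the 40 encode transporters.

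Endometrium was collected from multiparous Landrace × Yorkshire sows after 114 days of feeding that began at breeding, and 12 RNA libraries were made, 3 per diet. The L − N diet held 3.73% crude fiber without N-carbamylglutamate (NCG, an analog of N-acetylglutamate that activates arginine synthesis), and it served as the basal control. The L + N diet held 3.73% crude fiber with 0.05% NCG, the H − N diet 7.46% crude fiber without NCG, and the H + N diet 7.46% crude fiber with 0.05% NCG. Each diet was fed to 100 sows, and fiber was raised by replacing part of the corn with soybean bran and beet pulp, so that fiber content and feed ingredients cannot be told apart. No source used here says whether a library came from a single sow.

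SLC2A genes encode the facilitative hexose carriers of the GLUT type, which let glucose, fructose and related molecules run down their gradient. SLC5A genes encode sodium-coupled carriers, which draw on the gradient set by the sodium pump to take up glucose, myo-inositol, vitamins or iodide. SLC16A genes encode the monocarboxylate transporters, of which the best known move lactate and pyruvate together with protons, while others carry thyroid hormones or aromatic amino acids. In pregnancy the uterine lining passes maternal glucose to the conceptus, and in pigs part of that glucose appears in the fetal fluids as fructose.

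Total counts ran from 14369781 to 19309724 per library. As whole endometrium was sequenced, fewer cells of a type and less RNA per cell cannot be told apart. Several libraries stood apart in the summed level of markers of other cell types, in CPM (counts scaled to library size). The 5 macrophage markers summed to 515, 1404 and 1415 CPM in the L − N replicates 1, 2 and 3, against 255 to 576 CPM in the 9 other libraries. The 5 smooth muscle markers summed to 3793 CPM in L − N replicate 1 and to between 562 and 1441 CPM elsewhere. H − N replicate 3 held the highest sums of neutrophil markers, at 172 CPM, and of epithelial markers, at 2283 CPM. Of the chorion markers CDX2 had no read in any library, and the list summed to 24.3 to 51.9 CPM.

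Levels were compared between genes by FPKM, which corrects for gene length and library size. Of the 39 genes whose values are described here, 31 had enough reads to be tested between diets, and these were 12 SLC2A, 8 SLC5A and 11 SLC16A genes. They are called the transporter genes below, with SLC2A4RG counted among them. The other 8 were close to silent. SLC2A2, the low-affinity glucose carrier of liver and pancreatic islets, and SLC16A13 had no read in any library. SLC16A13 lies wholly inside SLC16A11 on the opposite strand, over 4113 bases, and it is not known how reads of such a pair were assigned. SLC2A7, SLC5A11 and SLC5A12 had at most 3 reads in every library, the floor used here, with totals over the 12 libraries of 2, 3 and 6 reads. SLC5A2, the main sodium-glucose carrier of the kidney, reached 12 reads in its highest library, the choline carrier gene SLC5A7 reached 7, and SLC16A8 reached 6.

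**Figure D1:**
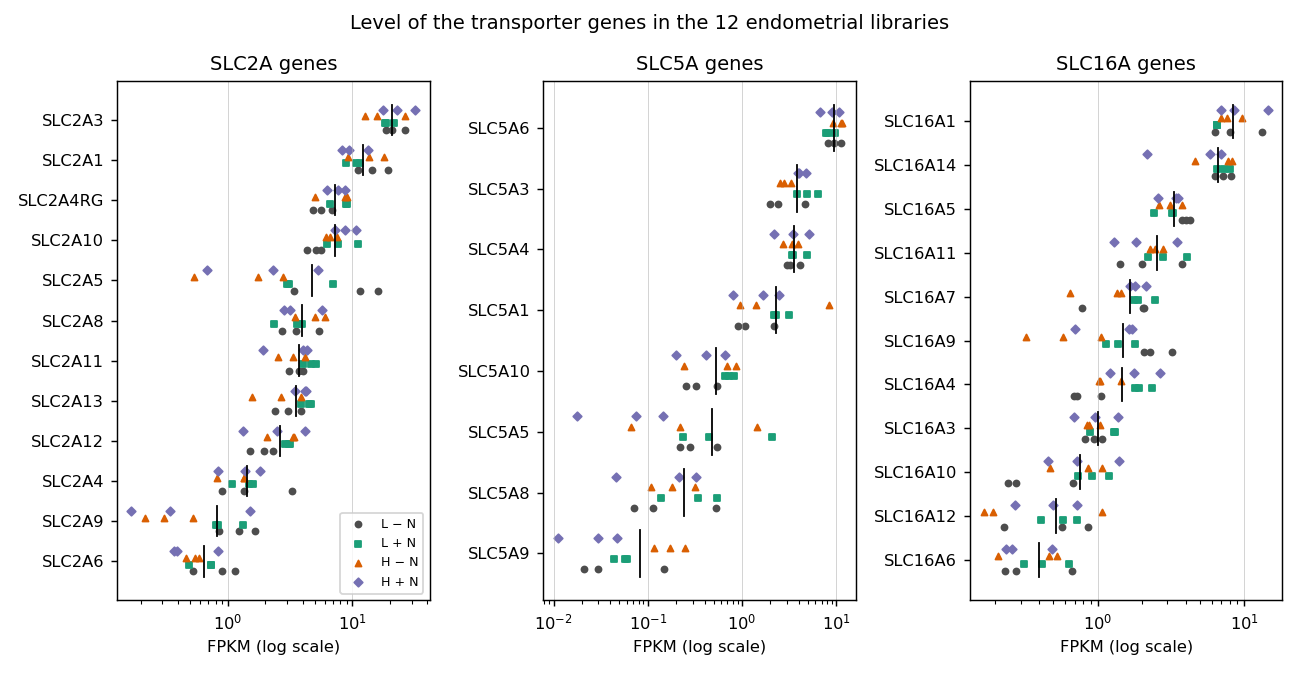
FPKM (log scale) of the 31 transporter genes tested in the 12 endometrial libraries, by family and in falling order of the mean over the libraries (black bar), with symbols for the 4 diets. SLC2A3 stands highest of all, with 12.6 to 32.0 FPKM.

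The hexose carrier genes of the basal supply led the whole set. SLC2A3, a high-affinity glucose carrier, had a mean of 21.0 FPKM over the 12 libraries, and SLC2A1, the glucose carrier of most tissues, had 12.3 FPKM. By comparison, the median of the 15351 genes tested was 6.98 FPKM, and 6 of the 39 genes lay above it. The others above it were SLC5A6 at 9.37, SLC16A1 at 8.46, SLC2A4RG at 7.27 and SLC2A10 at 7.26 FPKM. SLC2A3 held between 26.6% and 45.1% of the summed FPKM of the SLC2A transporters, and SLC2A1 between 14.3% and 26.7%. That sum was 68.8 ± 14.9 FPKM under L − N, 60.7 ± 6.77 under L + N, 56.2 ± 9.76 under H − N and 62.6 ± 7.35 under H + N (SD, n = 3 each). The sum for the SLC5A transporters lay between 17.4 and 29.3 FPKM, and that for the SLC16A transporters described here between 26.0 and 34.0 FPKM.

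Levels of close neighbours were set side by side. SLC5A1 and SLC5A4 lie 3901 bases apart on chromosome 14 of Sscrofa11.1, with means of 2.27 and 3.58 FPKM. Their ranges over the libraries overlapped, at 0.80 to 8.29 and 2.17 to 5.14 FPKM. SLC2A7 and the fructose carrier gene SLC2A5 lie 4070 bases apart on chromosome 6, the former at a mean of 0.00437 FPKM and the latter at 4.77 FPKM. The spread between replicates differed among members. Within groups the coefficient of variation of the 31 tested genes had a median of 19.6% for L + N, 29.1% for H − N, 36.8% for L − N and 42.7% for H + N. It ran from 1.71% (SLC16A1 in L + N) to 134% (SLC5A5 in H − N).

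The design asks how fiber, NCG and both together change gene expression in the endometrium. Read counts were tested between diets by the quasi-likelihood method of edgeR, and the Benjamini-Hochberg adjustment covered all 15351 genes. The log2 fold changes come from that fit, and CPM values are scaled by edgeR's normalization (TMM). Diets were also averaged over the other factor, as high fiber (HF, the H − N and H + N diets) against low fiber (LF, the L − N and L + N diets) and as NCG against no NCG, and the interaction asks whether the NCG effect differed between HF and LF. Against L − N, 0 of the 31 transporter genes passed an adjusted p of 0.05 by edgeR in H + N, where 7.97% of all genes tested did. In H − N 1 of 31 passed, beside 5.27% of all genes, and in L + N 1 of 31 passed, beside 9.6% of all genes. These shares of the members (0%, 3.23% and 3.23%) were near or under the background, and counts so low say nothing about the members as a set. DESeq2 called 3, 3 and 2 members in H + N, H − N and L + N, beside 17.5%, 13.6% and 18% of the genes to which it gave an adjusted p. The 3 comparisons share the L − N libraries, so they are not independent of each other. When the 0.05 limit was set on unadjusted p-values, 4, 4 and 6 of the 31 genes passed in H + N, H − N and L + N, against 27.5%, 24.4% and 27.8% of all genes. The median log2 fold change of the members was −0.15 in H + N, −0.14 in H − N and 0.07 in L + N, beside 0.02, 0.03 and −0.02 over all genes. An absolute log2 fold change above 1 was then added to edgeR's limit. The members called were 0, 1 and 1, beside 3.58%, 2.91% and 3.99% of all genes. The study set that fold threshold on DESeq2 results. As run here, DESeq2 put SLC2A5 (−2.02, DESeq2's adjusted p = 0.0320) and SLC16A4 (1.11, 0.0167) past both limits in H + N. In H − N these were SLC2A5 (−2.72, 0.00313), SLC2A9 (−1.92, 0.0494) and SLC16A9, and in L + N SLC16A4. The share of all genes past both limits by DESeq2 was not counted.

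**Figure D2:**
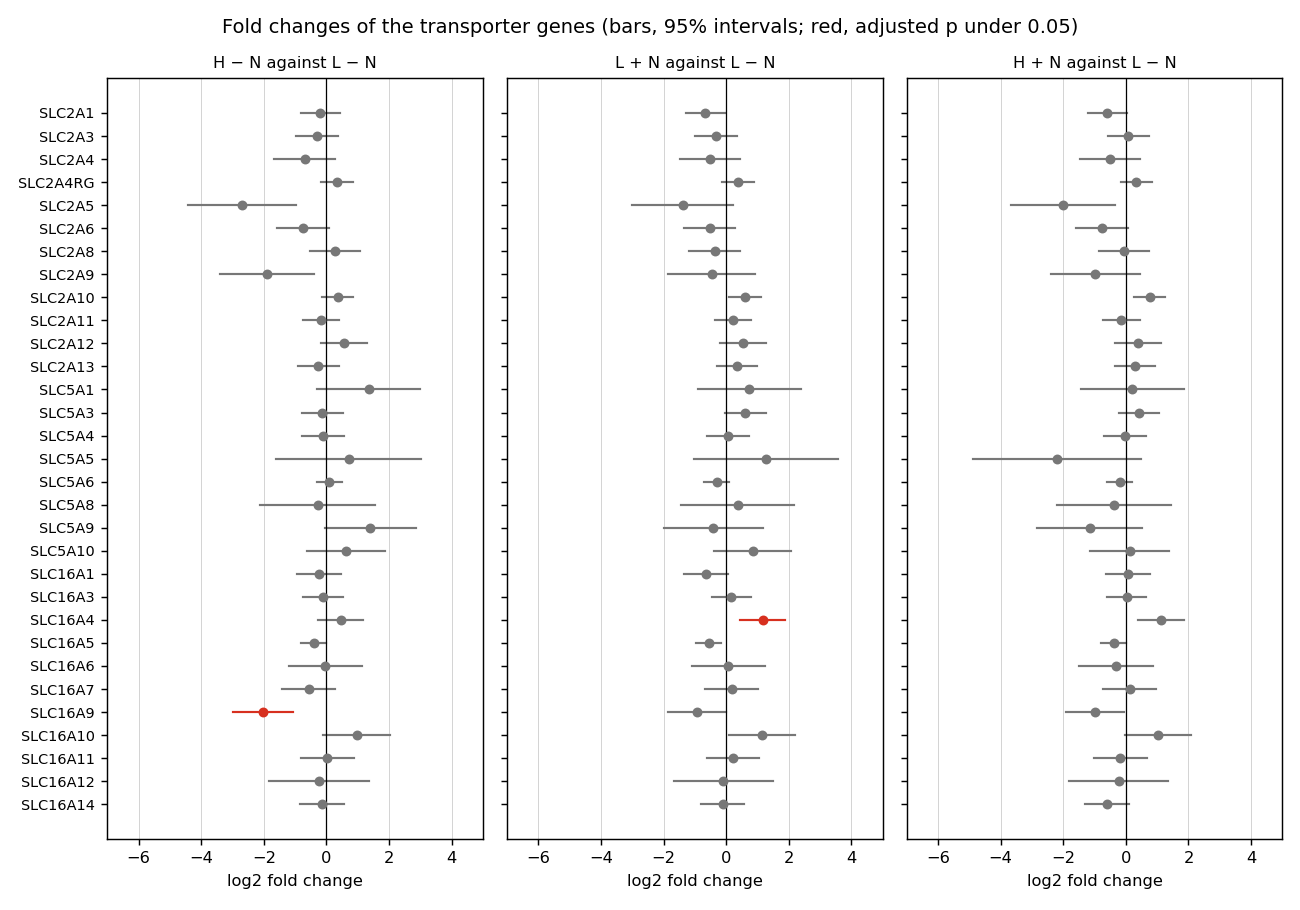
Log2 fold change of the 31 transporter genes tested for H − N, L + N and H + N, each against L − N (points, edgeR; bars, 95% intervals; red, adjusted p under 0.05). SLC16A9 is red in H − N, at −2.02, and SLC16A4 in L + N, at 1.16, and the other intervals mostly cross 0.

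**Figure D3:**
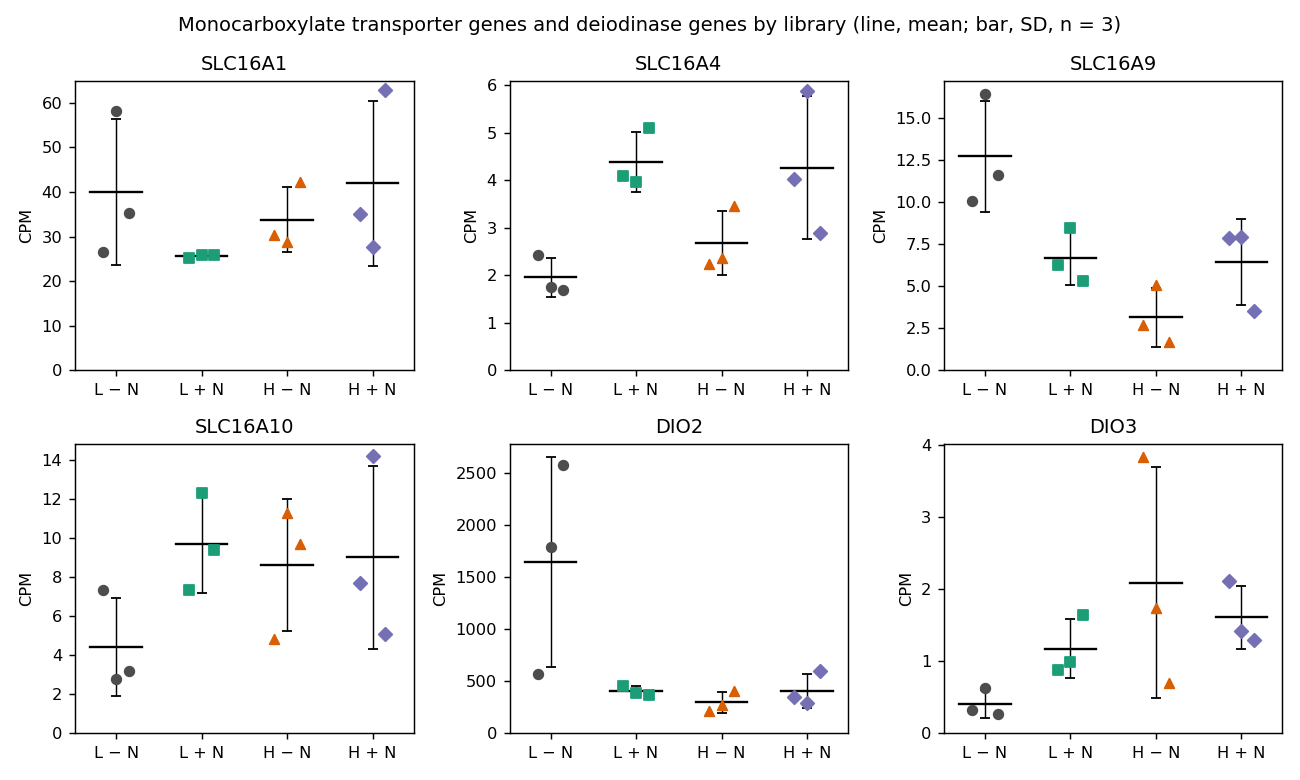
CPM of SLC16A1, SLC16A4, SLC16A9, SLC16A10, DIO2 and DIO3 in each of the 12 libraries (points; line, mean; bar, SD, n = 3). SLC16A1 lies at 25.1 to 25.9 CPM in L + N, SLC16A9 is highest in L − N, at 10.1 to 16.4 CPM, and DIO2 spreads from 568 to 2584 CPM in L − N.

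Of the 8 listed genes of thyroid hormone handling, 4 were tested, and 1 of them, DIO2, passed in each comparison with L − N. In H + N, H − N and L + N, 7.97%, 5.27% and 9.6% of all genes passed. DESeq2 called 2, 2 and 1 of the 4 there, DIO2 among them each time, beside 17.5%, 13.6% and 18% of all genes. DIO2 encodes the deiodinase that makes the active hormone. It was at 568, 1792 and 2584 CPM in L − N, at 455, 386 and 367 under L + N, at 211, 268 and 404 under H − N, and at 342, 285 and 593 under H + N. The L − N libraries spread widely, and L − N replicate 1 lay below H + N replicate 3. The log2 fold change was −2.02 in H + N (edgeR's adjusted p = 0.0308), −2.48 in H − N (edgeR's adjusted p = 0.0239) and −2.03 in L + N (edgeR's adjusted p = 0.0240). Without L − N replicate 3 these were −1.54, −2.0 and −1.55, with edgeR's adjusted p of 0.117, 0.0975 and 0.0983. DIO2 and the macrophage markers were both lowest in replicate 1 within L − N and in replicate 3 within L + N. Within H − N and within H + N, replicate 3 was highest in DIO2 and lowest in the macrophage sum. The part of the macrophage markers in the DIO2 result was not tested. DIO3, whose enzyme inactivates the hormone, was at 0.27 to 0.63 CPM in L − N and at 0.69 to 3.83 CPM in the other libraries, and its values were 1.96, 2.35 and 1.5 in H + N, H − N and L + N with edgeR's adjusted p of 0.0717, 0.0521 and 0.148. The receptor genes THRA and THRB did not pass, with values from −0.07 to 0.20 and from −0.52 to −0.35 in the same comparisons.

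SLC16A10, which carries aromatic amino acids and thyroid hormones, did not pass the test. It was at 7.32, 2.76 and 3.16 CPM in L − N, at 7.33, 12.3 and 9.42 under L + N, at 4.82, 11.3 and 9.72 under H − N, and at 7.71, 14.2 and 5.09 under H + N. L − N replicate 1 was level with the lowest L + N library and above libraries of both HF diets. The log2 fold change was 1.03 in H + N (95% interval −0.03 to 2.09), 0.96 in H − N (95% interval −0.10 to 2.02) and 1.13 in L + N (95% interval 0.08 to 2.19, edgeR's adjusted p = 0.154).

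SLC16A4, a member with no settled substrate, was higher with NCG at low fiber and as an average over both fiber levels. The gene (identifier 100512346) lies on chromosome 4 from 109738584 to 109763649. It was at 2.42, 1.76 and 1.68 CPM in L − N, at 4.08, 3.96 and 5.10 under L + N, at 2.23, 2.36 and 3.45 under H − N, and at 4.02, 5.87 and 2.88 under H + N. All L + N libraries lay above all L − N libraries, while H + N and H − N overlapped. Between H + N and H − N the log2 difference was 0.67 (95% interval −0.04 to 1.39, edgeR's adjusted p = 0.588). Against L − N, the log2 fold change in L + N was 1.16 (standard error 0.33, 95% interval 0.44 to 1.89, edgeR's adjusted p = 0.0491), and in H + N it was 1.12 (standard error 0.33, edgeR's adjusted p = 0.0592), where DESeq2 called it (1.11, DESeq2's adjusted p = 0.0167). Over both fiber levels the difference between NCG and no NCG was 0.92 (standard error 0.23, 95% interval 0.41 to 1.42, edgeR's adjusted p = 0.0374), and SLC16A4 was the 1 of 31 transporter genes that passed there, beside 7.27% of all genes. At an unadjusted p of 0.05, 6 of the 31 passed for NCG, beside 23.6% of all genes, and DESeq2 called 2, beside 13.6%. The call held in 6 of 17 alternatives for L + N, with edgeR's or DESeq2's adjusted p from 0.0114 to 0.167, and in 6 of 16 for NCG, from 0.00379 to 0.0967. Without L − N replicate 3 the values were 1.07 in L + N and 0.87 for NCG, the highest p-values of both ranges, and leaving out any single L + N library also ended both calls.

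SLC16A9, linked to carnitine transport, was lower in H − N than in L − N. The gene (identifier 100155871) lies on chromosome 14 from 63026661 to 63109137. It was at 10.1, 16.4 and 11.6 CPM in L − N, at 6.26, 8.44 and 5.30 under L + N, at 2.69, 5.06 and 1.66 under H − N, and at 7.84, 7.93 and 3.49 under H + N. The 9 libraries of the other diets all lay below the lowest L − N library, and only H − N passed the test. The log2 fold change was −2.02 in H − N (standard error 0.43, 95% interval −2.97 to −1.07, edgeR's adjusted p = 0.0300), −0.98 in H + N (standard error 0.42, edgeR's adjusted p = 0.153) and −0.93 in L + N (standard error 0.42, edgeR's adjusted p = 0.174). The macrophage markers summed to 505, 576 and 374 CPM in L + N, 338, 398 and 255 in H − N, and 443, 509 and 378 in H + N. This sum was in the order of SLC16A9 within each of these diets, and within L − N replicate 1 was lowest in both. No single marker kept that order in all of these diets. CD68 was at 119, 86.8 and 81.5 CPM in L + N, and CD163 at 142, 139 and 106 CPM in H − N. In H − N 3 of the 5 markers were called lower, and their part in the SLC16A9 result was not tested. For HF against LF DESeq2 called SLC16A9 (−1.05, DESeq2's adjusted p = 0.0165), and edgeR did not. The interaction of fiber and NCG was 1.96 (standard error 0.60, edgeR's adjusted p = 0.275), so the difference between the NCG effects at the 2 fiber levels did not pass. The H − N call was lost without L − N replicate 2 (−1.79, edgeR's adjusted p = 0.0848), L − N replicate 3 (−2.08, 0.0999), the library H − N 1 (−1.92, 0.0891) or the library H − N 3 (−1.72, 0.0767), with adjusted p from 0.000169 to 0.106 over the 17 alternatives.

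The lactate and pyruvate carriers of the family did not pass in any comparison. SLC16A1 (MCT1) was at 26.5, 58.2 and 35.3 CPM in L − N, at 25.1, 25.9 and 25.8 under L + N, at 30.4, 28.7 and 42.1 under H − N, and at 35.1, 27.6 and 62.9 under H + N. The L + N libraries sat close together below all L − N and all H + N libraries, with a log2 fold change against L − N of −0.64 (95% interval −1.36 to 0.07, edgeR's adjusted p = 0.222). SLC16A1 overlaps LRIG2 on the opposite strand over 389 bases. SLC16A3 (MCT4), the lactate exporter of glycolytic cells, was at 3.63, 5.02 and 4.43 CPM in L − N, at 5.39, 3.78 and 5.49 under L + N, at 4.35, 3.81 and 3.93 under H − N, and at 3.03, 5.81 and 4.41 under H + N. Its mean of 1.01 FPKM over the libraries was far below the 8.46 FPKM of SLC16A1, and its log2 fold changes against L − N were 0.02, −0.11 and 0.16 in H + N, H − N and L + N, with 95% intervals that together spanned −0.74 to 0.79. SLC16A14, a less studied member, was at 51.6, 42.5 and 48.2 CPM in L − N, at 42.9, 40.1 and 48.5 under L + N, at 49.8, 48.8 and 30.6 under H − N, and at 36.8, 42.3 and 14.3 under H + N. All H + N libraries lay below the L − N libraries, and the log2 fold change was −0.61 (95% interval −1.31 to 0.10, edgeR's adjusted p = 0.247).

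Embigin and basigin are the chaperones that carry monocarboxylate transporters to the membrane. EMB, which encodes embigin, was at 20.5, 33.5 and 19.4 CPM in L − N, at 56.0, 73.2 and 45.9 under L + N, at 25.2, 54.4 and 40.1 under H − N, and at 47.3, 54.7 and 35.3 under H + N. EMB rose in L + N against L − N by 1.25 on the log2 scale (standard error 0.31, edgeR's adjusted p = 0.0291). BSG, which encodes basigin, had a log2 fold change of −0.42 in that comparison (edgeR's adjusted p = 0.178) and of −0.11 and −0.10 in H + N and H − N. Against L − N, EMB was also at 0.90 in H + N and 0.70 in H − N (edgeR's adjusted p = 0.0850 and 0.185). For NCG it was at 0.73 (edgeR's adjusted p = 0.0666). EMB was the 1 that edgeR called of the 3 chaperone genes tested in L + N, beside 9.6% of all genes. DESeq2 called 1, 0 and 1 of the 3 in H + N, H − N and L + N, and 1 for NCG. Its shares of all genes were 17.5%, 13.6%, 18% and 13.6%.

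None of the 12 SLC2A genes tested passed edgeR's limit in any of the 8 comparisons, while DESeq2 called SLC2A5 in H − N, H + N and HF, SLC2A9 in H − N, and SLC2A10 in H + N and for NCG. At an unadjusted p of 0.05 edgeR gave 2 SLC2A genes in each of H + N, H − N and L + N against L − N, in HF and for NCG, and 0 in the other 3 comparisons. That is 16.7% of the 12 in each of the 5, below the 27.5%, 24.4%, 27.8%, 19.5% and 23.6% of all genes. SLC2A3 was at 88.8, 132 and 105 CPM in L − N, at 80.5, 84.4 and 97.1 under L + N, at 72.0, 59.2 and 133 under H − N, and at 108, 80.1 and 158 under H + N. SLC2A1 was at 37.7, 53.5 and 30.8 CPM in L − N, at 26.1, 22.3 and 28.6 under L + N, at 33.7, 24.0 and 49.0 under H − N, and at 21.6, 23.5 and 36.1 under H + N. Both genes had a high library in H − N replicate 3 and, within H + N, in replicate 3. For SLC2A1 the NCG difference was −0.53 (95% interval −0.98 to −0.09, edgeR's adjusted p = 0.141), and for SLC2A3 it was 0.04 (95% interval −0.43 to 0.51). SLC2A1 overlaps ZNF691 on the opposite strand over 20710 bases.

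SLC2A5, the fructose carrier gene, ranged from 1.45 to 43.6 CPM over the 12 libraries. It was at 8.79, 43.6 and 31.4 CPM in L − N, at 16.8, 7.74 and 7.32 under L + N, at 4.30, 7.14 and 1.45 under H − N, and at 5.93, 13.1 and 1.84 under H + N. All H − N libraries lay below all L − N libraries, while L + N and H + N overlapped with L − N through its replicate 1. The log2 fold change was −2.70 in H − N (standard error 0.78, 95% interval −4.42 to −0.98, edgeR's adjusted p = 0.0698), −2.0 in H + N (standard error 0.76, edgeR's adjusted p = 0.116) and −1.65 for HF against LF (standard error 0.54, edgeR's adjusted p = 0.139). Without L − N replicate 1 the H − N value was −3.12 with edgeR's adjusted p = 0.0203, in a range over alternatives from 0.00313 to 0.186. The L − N libraries high in SLC2A5, replicates 2 and 3, were those with 1404 and 1415 CPM of macrophage markers, and replicate 1 had 515. The 5 macrophage markers were called lower in 3 cases in H − N, 2 in H + N and 1 in L + N, and their part in the SLC2A5 values was not tested. SLC2A9, the urate carrier gene, was at 1.78 to 3.69 CPM in L − N and at 0.48 to 1.11 CPM in H − N, a log2 fold change of −1.89 (edgeR's adjusted p = 0.121). SLC2A9 was in the order of the macrophage sums within H − N and within H + N, and within L − N both were lowest in replicate 1. Within L + N, replicate 2 was lowest in SLC2A9 and highest in the macrophage sum. The part of the macrophage markers in the SLC2A9 values was not tested.

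**Figure D4:**
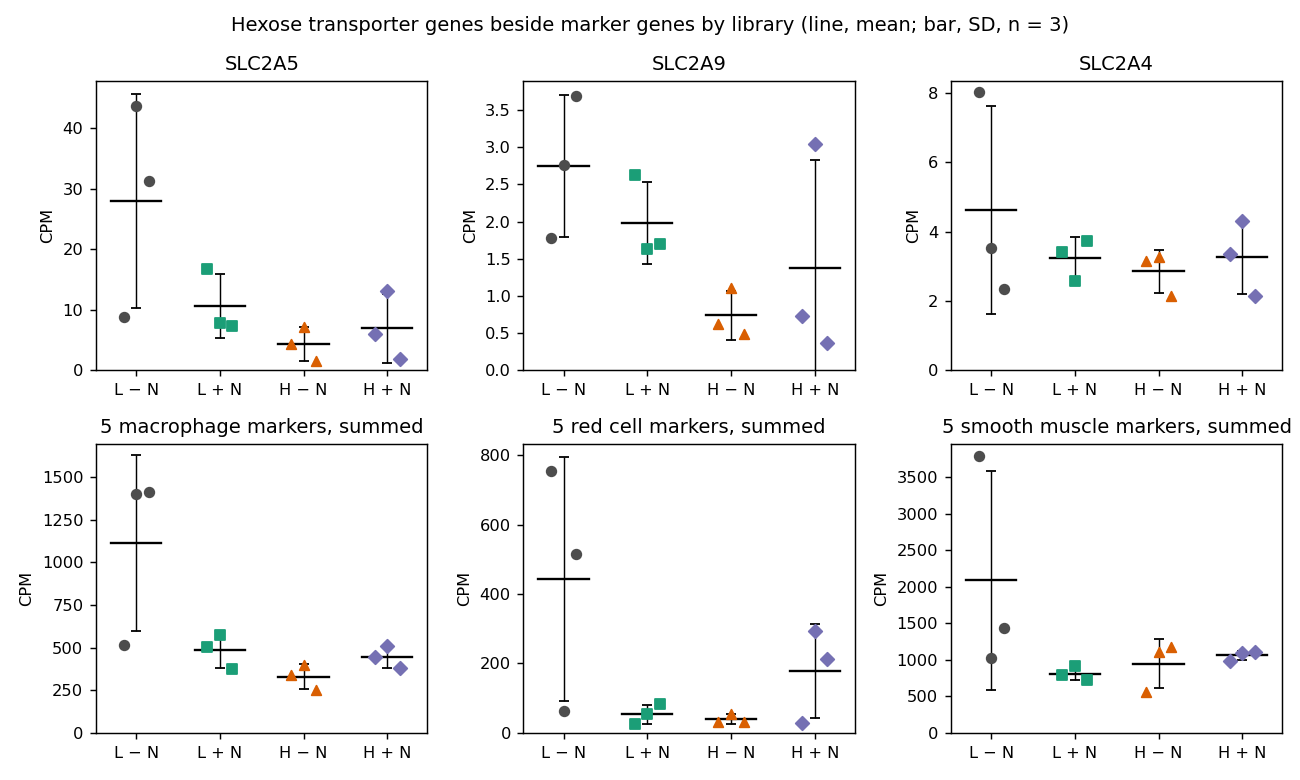
CPM of SLC2A5, SLC2A9 and SLC2A4 (upper row) and summed CPM of 5 macrophage, 5 red blood cell and 5 smooth muscle markers (lower row) in each of the 12 libraries (points; line, mean; bar, SD, n = 3). L − N replicates 2 and 3 are highest in both SLC2A5 and macrophage markers, and L − N replicate 1 is highest in both SLC2A4 and smooth muscle markers. Within each of the other diets, the library highest in smooth muscle markers is lowest in SLC2A4.

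SLC2A4, the insulin-responsive glucose carrier of muscle and fat, was at 8.02, 3.51 and 2.35 CPM in L − N, at 3.40, 2.56 and 3.73 under L + N, at 3.16, 3.26 and 2.14 under H − N, and at 3.36, 4.29 and 2.15 under H + N. L − N replicate 1, the highest, was also the library with 3793 CPM of smooth muscle markers. Within each of the other diets, the library highest in these markers was lowest in SLC2A4. The part of the smooth muscle markers in the SLC2A4 values was not tested. No comparison of SLC2A4 with L − N passed, with log2 fold changes from −0.70 to −0.50. SLC2A4RG was at 11.5, 9.97 and 8.66 CPM in L − N, at 13.9, 10.8 and 14.5 under L + N, at 14.6, 14.6 and 8.97 under H − N, and at 14.7, 12.4 and 10.97 under H + N. The groups overlapped in every comparison of SLC2A4RG. SLC2A10, which carries dehydroascorbic acid, the oxidised form of vitamin C, was lowest in the 3 L − N libraries, at 18.0 to 24.8 CPM, against 25.2 to 45.9 CPM elsewhere. Its log2 fold change was 0.76 in H + N (95% interval 0.26 to 1.26, edgeR's adjusted p = 0.0614), 0.36 in H − N (95% interval −0.14 to 0.86) and 0.60 in L + N (95% interval 0.11 to 1.10, edgeR's adjusted p = 0.114).

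Among the sodium-coupled carriers none of the 8 tested genes passed edgeR's limit in any comparison. At an unadjusted p of 0.05 they numbered 3 for NCG, 2 for H + N against H − N, 1 each for H + N against L + N and for the interaction, beside 23.6%, 8.67%, 4.68% and 12.8% of all genes, and 0 in the other comparisons, and DESeq2 called none of them. SLC5A6, the carrier of biotin and pantothenate and the highest of its family, was at 42.1, 32.0 and 37.6 CPM in L − N, at 33.3, 28.1 and 29.0 under L + N, at 39.8, 34.1 and 44.9 under H − N, and at 25.05, 31.9 and 40.8 under H + N. Its NCG difference was −0.29 (95% interval −0.58 to −0.01, edgeR's adjusted p = 0.201), and the gene overlaps ATRAID on the opposite strand over 469 bases. SLC5A3, the myo-inositol carrier induced by hypertonic medium, was at 23.7, 57.7 and 30.4 CPM in L − N, at 54.4, 73.2 and 42.9 under L + N, at 28.9, 38.6 and 34.3 under H − N, and at 56.4, 44.1 and 49.0 under H + N. All H + N libraries of SLC5A3 lay above all H − N libraries, while L + N and L − N overlapped through L − N replicate 2. The NCG difference was 0.58 (95% interval 0.12 to 1.04, edgeR's adjusted p = 0.121), and without L − N replicate 2 it was 0.81 with edgeR's adjusted p = 0.0149, in a range over alternatives from 0.0149 to 0.250. SLC5A3 lies wholly within MRPS6 on the same strand, so reads of both genes may be mixed.

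SLC5A1, the sodium-glucose carrier of the gut, was at 3.57, 9.09 and 4.50 CPM in L − N, at 8.06, 11.99 and 8.63 under L + N, at 5.34, 3.74 and 34.7 under H − N, and at 6.66, 3.04 and 10.2 under H + N. The value of 34.7 CPM came from H − N replicate 3, the library highest in epithelial and neutrophil markers, and the other H − N libraries were among the lowest. SLC5A4, of the sodium-glucose carrier group, was at 6.18, 7.02 and 8.93 CPM in L − N, at 6.45, 9.66 and 6.80 under L + N, at 6.58, 5.55 and 8.35 under H − N, and at 7.12, 10.05 and 4.60 under H + N. The groups overlapped for SLC5A4 throughout, with log2 fold changes against L − N from −0.11 to 0.05. The iodide carrier gene SLC5A5 was at 0.05 to 0.46 CPM in H + N and between 0.21 and 6.29 CPM in the other libraries, with a log2 difference of −3.45 between H + N and L + N (95% interval −6.11 to −0.79, edgeR's adjusted p = 0.910). SLC5A9, which carries mannose and glucose, was at 0.07 to 0.27 CPM in H + N and 0.69 to 1.59 CPM in H − N, a log2 difference of −2.56 (95% interval −4.15 to −0.97, edgeR's adjusted p = 0.451). Both differences rest on few reads in H + N, near the floor of 3. SLC5A5 had 7, 1 and 4 reads there, and SLC5A9 had 1, 5 and 3.

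The remaining tested members stayed short of edgeR's limit in every comparison. Among them SLC2A8, an intracellular hexose carrier, had a mean of 3.98 FPKM, SLC2A11 had 3.75, the proton-coupled myo-inositol carrier SLC2A13 had 3.53, SLC2A12 had 2.64 and SLC2A6 had 0.642 FPKM. SLC2A12 was at 19.6 to 21.5 CPM in L + N and 11.3 to 16.4 CPM in L − N, without overlap, and SLC2A12 and SLC2A6 overlap other genes of the table on the opposite strand. SLC16A7 (MCT2), a high-affinity pyruvate and lactate carrier, had 1.67 FPKM, and its libraries were at 22.2 to 27.4 CPM in H + N and 7.98 to 19.4 CPM in H − N, again without overlap. SLC16A11 had 2.54 FPKM and SLC16A12, a creatine carrier, 0.525 FPKM. Also low were SLC5A10 at 0.533, SLC16A6 at 0.396 and the monocarboxylate carrier SLC5A8 at 0.243 FPKM, all of which overlap other genes on the opposite strand.

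Between H + N and H − N, and between H + N and L + N, edgeR called 0 of the 31 transporter genes, and the background was 0% of all genes in both. At an unadjusted p of 0.05 the members were 3 and 1, against 8.67% and 4.68% of all genes, and DESeq2 called 0 in both, beside 0.319% and 0.0131% of the genes it gave an adjusted p. For HF against LF edgeR called 0 members, with 3 at an unadjusted p of 0.05 (19.5% of all genes) and 2 by DESeq2 (7.33% of all genes), and the background of edgeR's calls was 0.0521%. For the interaction it called 0 members, with 3 at an unadjusted p of 0.05 (12.8% of all genes) and 0 by DESeq2 (2.06% of all genes), and the background of edgeR's calls was 0%. Groups that did not overlap were counted as well. Against L − N these were 6 members in H + N, 5 in H − N and 9 in L + N, and such genes made up 28%, 25.4% and 35.3% of all genes. SLC16A5, SLC16A9 and SLC2A10 were among them in all 3. SLC16A5, which overlapped in no comparison with L − N, was at 19.8, 21.9 and 23.5 CPM there, at 15.9, 12.2 and 16.2 under L + N, at 18.7, 16.2 and 14.3 under H − N, and at 13.4, 17.7 and 18.6 under H + N. It had a log2 fold change of −0.56 in L + N (95% interval −0.96 to −0.16, edgeR's adjusted p = 0.0728), where DESeq2 called it (−0.57, DESeq2's adjusted p = 0.0183). Between H + N and H − N, 3 members did not overlap, beside 13% of all genes, and between H + N and L + N 2 did not, beside 11%.

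The pathways that use the transported sugars and acids were counted next. Over all lists, thyroid hormone handling and the chaperones included, 30 calls were made in the 8 comparisons. Without L − N replicate 3, 28 of the 30 were lost, and the 2 that held were PDK1 in L + N and for NCG. Other libraries left out singly ended between 5 (L − N replicate 1) and 18 (L − N replicate 2) of them. Of the 20 genes of glycolysis, 1 passed in H + N against L − N (PFKP), 0 in H − N (4 at an unadjusted p of 0.05, 2 by DESeq2) and 2 in L + N (HK1 and PGAM1), all of them lower. Over all genes tested the shares were 7.97%, 5.27% and 9.6%, so the glycolysis counts were near or under the background. HK1, the first enzyme of glucose use, had a log2 fold change of −0.41 in L + N (edgeR's adjusted p = 0.0223) and of −0.32 for NCG (edgeR's adjusted p = 0.0171). PFKP, a phosphofructokinase, was at −0.54 in H + N (edgeR's adjusted p = 0.0490) and −0.42 for NCG (edgeR's adjusted p = 0.0353). The glycolysis median was −0.32, −0.18 and −0.29 in H + N, H − N and L + N, beside medians of all genes of 0.02, 0.03 and −0.02.

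Of the 11 tested genes for lactate and pyruvate, PDK1 was the 1 that passed in each comparison with L − N. That was 9.09% of the list, beside 7.97%, 5.27% and 9.6% of all genes in H + N, H − N and L + N. PDK1 encodes a kinase that holds pyruvate back from oxidation. It was at 87.7, 78.3 and 102 CPM in L − N and between 44.4 and 56.8 CPM in all other libraries, so that the groups did not overlap. It fell by 0.81 in H + N (edgeR's adjusted p = 0.0151), by 0.70 in H − N (edgeR's adjusted p = 0.0207) and by 0.82 in L + N (edgeR's adjusted p = 0.00818) on the log2 scale. Of the 12 tested genes of glycogen metabolism, 3, 3 and 4 were called lower in H + N, H − N and L + N, and 0 were called higher. These were 25%, 25% and 33.3% of the list, beside 7.97%, 5.27% and 9.6% of all genes called in either direction. UGP2, which makes UDP-glucose, was at −1.14, −1.20 and −0.97, GYG1, the glycogen primer, at −0.51, −0.70 and −0.70, and PYGL, a glycogen phosphorylase, at −0.53, −0.49 and −0.69 in that order. For these 9 values edgeR's adjusted p ran from 0.0105 to 0.0491. UGP2 stood at 76.0 CPM in L − N replicate 1 and 154 and 165 CPM in replicates 2 and 3, the order of the macrophage sum. The order differed in the other diets. Within L + N and within H + N, UGP2 and the sum shared only their lowest library, replicate 3. Within H − N, replicate 3 was highest in UGP2 and lowest in the sum. The part of the macrophage markers in the UGP2 values was not tested.

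Of the 16 regulators of glucose transporters, TBC1D1, which holds SLC2A4 vesicles inside the cell, was lower in H + N (−0.51, edgeR's adjusted p = 0.0481). TXNIP, which withdraws glucose carriers from the surface, was lower in L + N (−0.89, edgeR's adjusted p = 0.0217), and 0 regulators passed in H − N (1 at an unadjusted p of 0.05, 1 by DESeq2). Of the 4 tested genes of myo-inositol metabolism, NFAT5, the tonicity factor known to drive SLC5A3, was higher in L + N (0.64, edgeR's adjusted p = 0.0425) and with NCG (0.51, edgeR's adjusted p = 0.0332). Of the 6 sodium pump subunits counted here, ATP1B1 was higher in H + N (0.88, edgeR's adjusted p = 0.0484) and H − N (1.36, edgeR's adjusted p = 0.0199). Over all genes edgeR called 7.97%, 5.27% and 9.6% in H + N, H − N and L + N and 7.27% for NCG. Single calls in these 3 lists say nothing about a list as a set. Neither the 6 tested genes of fructose and polyols nor the 3 tested receptors for short-chain acids and lactate held a call by edgeR in any comparison. At an unadjusted p of 0.05 the fructose list had 2, 2 and 1 genes in H + N, H − N and L + N against L − N (0, 2 and 0 by DESeq2), and the receptor list 0, 1 and 0 (0 by DESeq2 in each).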

How the data were processed

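Endometrial RNA was measured in 12 libraries, 3 for each of 4 diets, and the libraries were assigned to diets by their titles. The study's methods describe Trizol extraction and strand-specific poly(A) libraries. The submitters' processing notes name fastp 0.22.0, HISAT2 2.1.0, HTSeq 0.9.1 and the assembly Sscrofa11.1, and the strand setting of the counting is not given in the sources used here. The authors deposited read counts per gene, without normalization, and FPKM values, which follow from those counts, gene lengths and library totals to within 1.91e-05%.

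Counts were tested in R 4.3.3 with edgeR 4.0.16. The filterByExpr rule kept 15351 genes and TMM set the library scaling. A quasi-likelihood fit over the 12 libraries gave each diet its own mean and left 8 residual degrees of freedom. The biological coefficient of variation was 0.269. Diets were compared through contrasts of the means, with averages over 2 diets each for HF against LF and for NCG against no NCG. A gene passed at a Benjamini-Hochberg adjusted p under 0.05. Log2 fold changes came from that fit at edgeR's default prior count. A prior count of 2 was used only for log2 CPM values. These served to count non-overlapping groups over all genes and to correlate libraries. The floor was 3 counts. P-values measure the spread between these libraries, since no source ties each library to a separate animal. The test was checked on 3 simulated sets, each with 200 genes changed in H + N by 2 on the log2 scale. Against L − N it recovered 79.8% of them on average, with a mean of 8 false calls. Smaller changes were not simulated.

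All replicates of a diet differed by more than counting noise.

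Alternatives were the fold threshold, DESeq2 1.42.0 and its size factors (RLE), no filter on low counts, the replicate number as a block, only the 2 diets compared, and each of the 12 libraries left out. Among the members reported, values in every library were given for those that passed in any comparison, the 3 members of each family with the highest mean FPKM, and 10 members chosen for their role. Genes of the pathway lists were given by counts, with values for up to 4 per list. The members, lists and tests were chosen with earlier results of these data known. A member and some listed genes are not reported here, and the counts of members and lists cover the others. The listed genes LDHB, ISYNA1, FXYD1 and OR51E2 were not analysed here, and no sequence is printed.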

Additional observations from a re-analysis of the deposited data

How the results depend on the processing

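The 60 log2 fold changes of single genes recomputed under the alternatives were chosen by the main fit. They were those of members at edgeR's unadjusted p under 0.05 and of listed genes that edgeR called. Of these 0 changed sign, which their choice made likely beforehand, so it does not measure robustness. The numbers of transporter genes past the limit moved as follows, given for H + N, H − N and L + N against L − N where not said otherwise. With the fold threshold added to edgeR's limit they were 0, 1 and 1, and 0 for NCG. DESeq2 gave 3, 3 and 2, and 2 for HF and 2 for NCG, from 2680, 2091, 2701, 1123 and 2049 genes called in the whole table. With only the 2 diets compared they were 0, 0 and 0. Without the filter on low counts L + N had 0. The RLE size factors moved no number by over 1.5 times. With the replicate number as a block L + N had 0 and NCG 0. This fit pairs libraries by a number to which the labels give no further meaning. The correlation of same-numbered libraries of different diets ran from −0.322 to 0.283 over 18 pairs. For libraries with different numbers it ran from −0.323 to 0.284. These correlations, of deviations from means of 3 libraries, cannot settle what the number stands for. Leaving out each library in turn gave 0 to 2, 0 to 3 and 0 to 2, and 0 to 1 for HF, 0 to 1 for NCG, and 0 to 0 for the interaction and for H + N against H − N and against L + N. Without L − N replicate 3 the 3 comparisons with L − N held 0 members each, and the genes called in the whole table were 4, 6 and 207 instead of 1223, 809 and 1474. Without L − N replicate 1 they held 1, 3 and 2 members. The cause of these movements was not tested. Where a library was left out, its diet kept 2 libraries. Depth limits the members at the floor, for which a diet difference was not detectable.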
